A study of Mus musculus with 16 samples.

Results

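The genes of the proteasome were followed in mitral cells, the output neurons of the mouse olfactory bulb, with and without a channel that lowers neuronal excitability. Members were all genes whose symbol begins with Psma, Psmb, Psmc or Psmd and a digit, together with Psme1, Psme2, Psme3 and Psme4. The rule found 44 genes on 54 probes, out of 20124 genes with a named probe on the array, and 42 of the 44 could be tested. By role they are 8 alpha and 7 beta subunits of the core, 4 immunoproteasome and thymoproteasome beta subunits, 6 ATPases and 11 non-ATPases of the regulatory particle, 3 chaperones of its assembly and 4 activators. The remaining one, Psmc3ip, was taken in by its symbol but encodes a protein of meiotic recombination, and is kept apart.

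The cells came from ICR mice electroporated in utero at embryonic day 12. Control cells carried pCAG-EYFP alone, and Kir2.1 cells carried pCAG-EYFP with pCAG-Kir2.1, which encodes an inward rectifier potassium channel, so that all groups shared the fluorescent protein and the electroporation. Bulbs were taken at postnatal day 3 (P3) or postnatal day 6 (P6), and single fluorescent cells were kept if PCR found both EYFP and pcdh21, now Cdhr1, a mitral cell marker. The 4 groups had 4 arrays each, every one of them read from the amplified cDNA of 10 cells. The CAG promoter is not restricted to mitral cells, the construct does not reach every cell, and the labels do not say how many animals gave a pool, so p-values measure only the spread between pools. A change in a few of the cells and a smaller change in all of them cannot be told apart in a pool.

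The proteasome degrades proteins that carry ubiquitin chains. Its barrel-shaped core is built of alpha rings, which gate the entry, and beta rings, in which Psmb5, Psmb6 and Psmb7 encode the cutting subunits; under interferon these can be replaced by the immunoproteasome subunits Psmb8, Psmb9 and Psmb10. A regulatory particle of ATPases (Psmc genes) and non-ATPases (Psmd genes) binds the ubiquitin chain, removes it and unfolds the substrate, and other caps (Psme genes) open the core without ubiquitin. In neurons the proteasome is known for its part in synapse development and protein turnover. Expression of the subunits is known to be raised together by the factor NFE2L1, which binds antioxidant response elements.

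To show where such elements would lie, stretches of 100 bases that end just before the annotated start are given for the genes on which the results below turn (Psmd8, Psma5 and Psma3) and for both cutting-subunit genes with a match in this stretch (Psmb5 and Psmb6). They are from RefSeq's table for GRCm38.p6, 5′ to 3′ on the gene's own strand, with the match to TGACNNNGC in capitals. Psmd8 lies on the minus strand (chr7:29180674-29180773), Psma5 on the plus strand (chr3:108256826-108256925), Psma3 on the plus strand (chr12:70974523-70974622), Psmb5 on the minus strand (chr14:54617996-54618095) and Psmb6 on the plus strand (chr11:70525257-70525356).
Psmd8: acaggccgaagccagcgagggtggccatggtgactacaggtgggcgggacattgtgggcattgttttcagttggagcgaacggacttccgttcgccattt
Psma5: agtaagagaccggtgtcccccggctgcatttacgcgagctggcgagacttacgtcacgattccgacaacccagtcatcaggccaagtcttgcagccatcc
Psma3: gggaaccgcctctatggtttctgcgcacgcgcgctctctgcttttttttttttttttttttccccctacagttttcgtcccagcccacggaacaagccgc
Psmb5: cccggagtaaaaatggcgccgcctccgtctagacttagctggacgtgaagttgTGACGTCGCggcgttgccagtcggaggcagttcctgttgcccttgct
Psmb6: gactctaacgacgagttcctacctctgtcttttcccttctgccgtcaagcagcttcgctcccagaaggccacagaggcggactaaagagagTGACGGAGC

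The match ended 39 bases before the start in Psmb5 and 1 base before it in Psmb6. Promoter windows from 250 bases before to 50 bases after the start were listed for 37 of the 44 genes. TGACNNNGC, searched on both strands, was in the windows of 6 of the 37 (Psmb5, Psmb6, Psmc6, Psmd9, Psmd12 and Psme4), or 16.2%, against 14.0% of 27025 genes. The second spelling, TGAGNNNGC, which differs from it in a single letter, was in 12 of the 37 (32.4%) against 19.8% of all genes. The first share is near that of all genes and the second is higher, and neither was tested. Psma5 is among the 12, with its match at bases 9 to 17 from the start, outside the stretch shown.

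Signal was detected for almost all of the family. Of the 42 genes tested, 36 (85.7%) were well above background on all 16 arrays, against 53.7% of the 12035 named genes tested. The exceptions were Psmd5 on 15 arrays, Psmd10 on 13, Psmd9 on 12, Psmc3ip on 11, Psme4 on 9 and Psmb8 on 4. The untested genes were Psma8, the alpha subunit of testis, and Psmb11, the beta subunit of thymus, neither of which was well above background on any array. An array had 34.3% to 41.1% of all probes well above background, and the mitral cell marker Cdhr1 was so on every array. Kcnj2, the gene of Kir2.1, was not well above background on any array, and whether its probe covers the construct is not known, so it gave no check of the labels.

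Among the genes detected on all arrays, the spread between pools of a group had a lower median in the proteasome than over all named genes. The median within-group SD of the log2 signal was 0.43 over 36 proteasome genes and 0.68 over 6460 named genes. By group the proteasome medians were 0.28 (control) and 0.33 (Kir2.1) at P3 and 0.49 (control) and 0.42 (Kir2.1) at P6. Over all named genes the same medians were 0.43, 0.53, 0.65 and 0.65. The 2 sets also differed in signal. In the P3 control pools the mean log2 signal was 0.22 over the 36 proteasome genes and -1.50 over the 6460 named genes. The part of signal level in the spread was not tested. Psma2 (within-group SD 0.18), Psmb4 (0.20) and Psmb3 (0.24) varied least, and Psmb8 (2.50) and Psmc3ip (2.36), which fell below background on part of the arrays, varied most. In the plot of all genes by pool, both are broken rows of extremes.

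**Figure D1:**
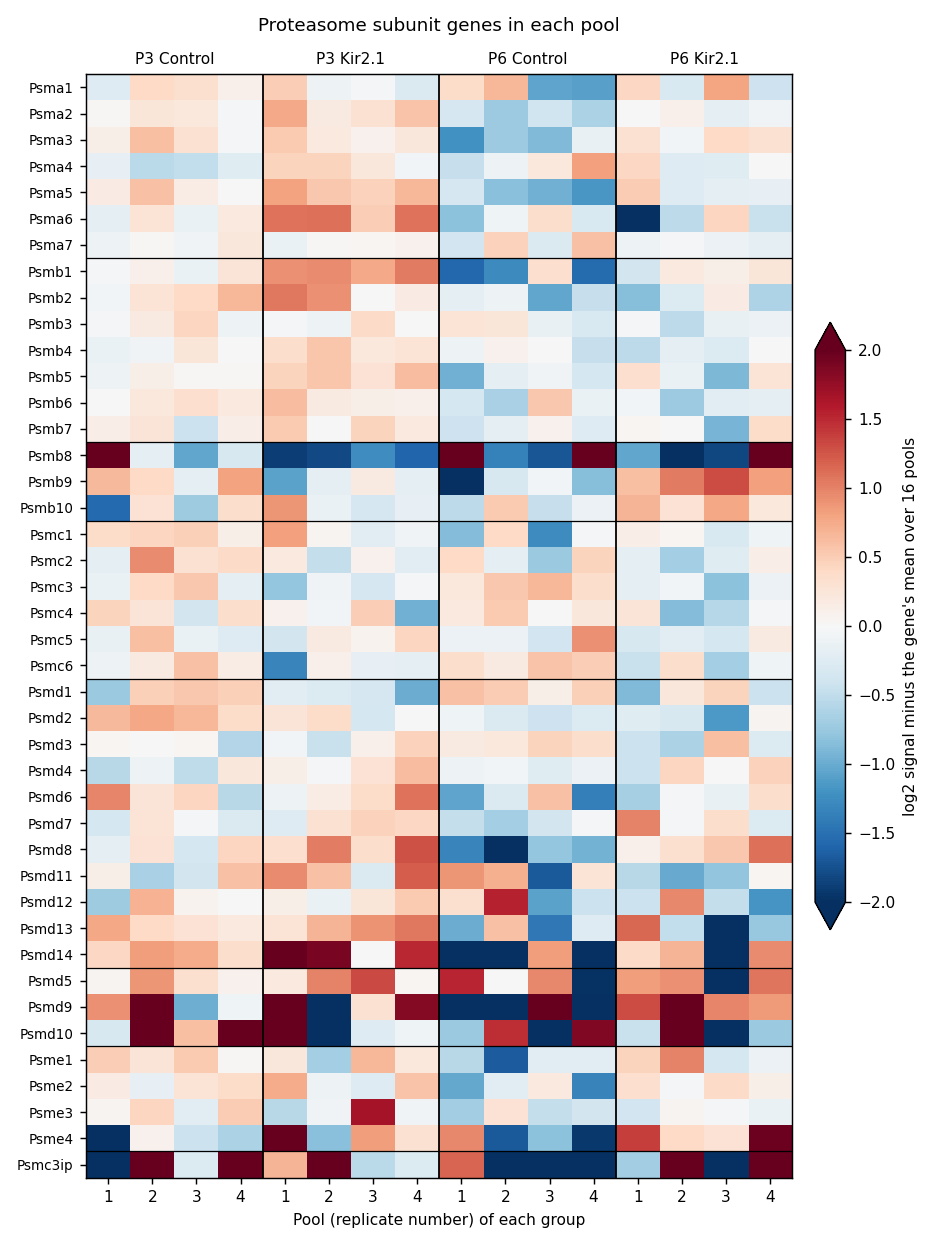
Heat map of the 42 tested genes (rows, ordered by role, with lines between roles) in 16 pools (columns, by group and replicate number), coloured by log2 signal minus the gene's mean over the 16 pools, with colours ending at 2 in either direction. Alpha and beta ring genes stay pale in most pools. Psma5 and Psmd8 are low in the P6 control pools, Psma3 in all of these but pool 4 and Psmb1 in all but pool 3. Psma6 is lowest in P6 Kir2.1 pool 1 (log2 signal -1.98), while Psmb8, Psmd9, Psmd10 and Psmc3ip vary widely within groups.

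Kir2.1 was compared with control at each age to ask how the channel alters the genes of mitral cells. The fit used 1 spread per gene over all 4 groups. An SE or p-value at P3 therefore also takes in the spread of the P6 pools, and the reverse. At P6 the lid subunit gene Psmd8 rose in Kir2.1 cells, by 1.82 on the log2 scale (SE 0.36, limma adjusted p = 0.0259), or 3.53-fold, and no other proteasome gene passed the threshold of 0.05. This was 1 of 42, beside 1.80% of all named genes called. At an unadjusted p under 0.05 there were 12 of 42 proteasome genes, 11 higher in Kir2.1 cells and 1 lower, against 17.2% of all named genes. The groups did not overlap for 6 genes (Psmd8, Psma2, Psma3, Psma5 and Psmb9 higher, Psmc3 lower), against 8.08% of all named genes.

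Across the family, the change at P6 was small and went both ways. Of 42 genes, 22 had a positive and 20 a negative difference, with a median of 0.06 on the log2 scale, beside a median of -0.09 over all named genes. When the arrays were scaled over all probes, both medians moved up, to 0.27 and 0.12, and 28 of 42 differences were then positive. With single P6 pools left out, the proteasome median ran from 0.02 (without Kir2.1 pool 2) to 0.31 (without Kir2.1 pool 3). Without P6 control pools 1 and 3, described below, it was -0.07 beside -0.11. The distance between the medians of the proteasome and of all named genes was 0.15 and ranged from 0.04 to 0.39 over the 29 alternatives run.

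At P3 no proteasome gene passed the threshold in limma, beside 0.00831% of all named genes (1 gene). Unadjusted p was under 0.05 for 2 genes, Psmb1 and Psma4, both higher in Kir2.1 cells, against 6.07% of all named genes. The groups did not overlap for 5 genes, against 5.89% of all named genes: Psma4, Psma6, Psmb1 and Psmb5 were higher, and Psmb8, which was above background in 1 of these 8 pools, was lower. Of 42 differences 27 were positive, with a median of 0.11 beside -0.10 over all named genes. Leaving out P3 control pool 1 took it to 0.04 (23 of 42 positive) and P3 control pool 2 to 0.23, and without P3 Kir2.1 pool 1 or 2 it was 0.18. For the mean of both ages, Psmd8 was the 1 gene called (0.706% of all named genes were), 10 genes had an unadjusted p under 0.05 (7 higher, 3 lower, against 12.9%), and the median was 0.14 beside -0.10 (0.21 without P6 control pool 2).

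**Figure D2:**
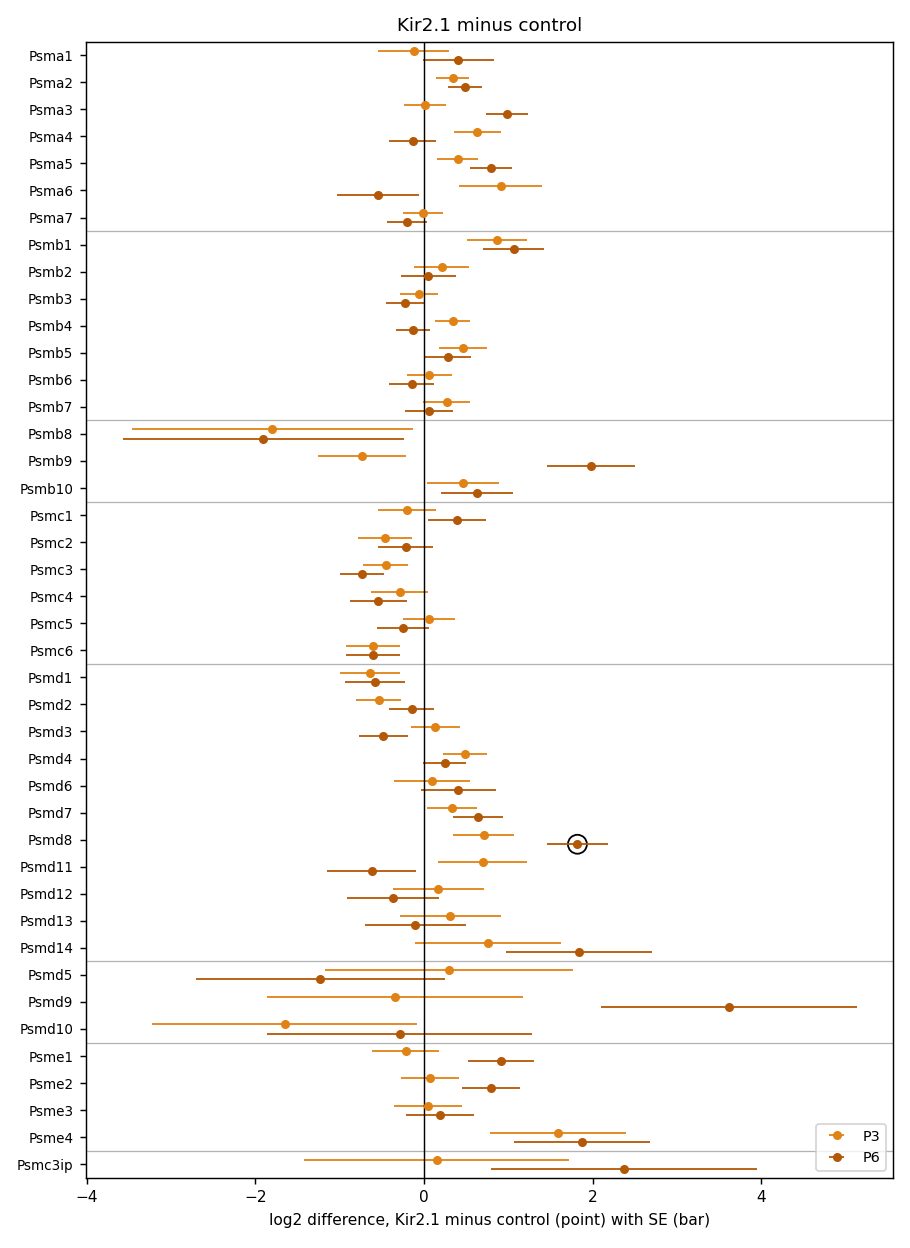
Difference in log2 signal between Kir2.1 and control pools (x axis) for 42 genes (y axis, by role), as points with their SE as bars, at P3 (light) and P6 (dark); a circle marks an adjusted p under 0.05. Psmd8 at P6 is circled at 1.82, and 5 of the 6 ATPase genes (Psmc1 to Psmc6) lie left of 0 at each age.

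Psmd8 encodes a subunit of the lid, the part of the regulatory particle that takes the ubiquitin chain off the substrate. Its log2 signals were -1.89, -2.74, -1.35 and -1.51 in the P6 control pools and -0.47, -0.26, -0.03 and 0.54 in the P6 Kir2.1 pools. Every Kir2.1 pool thus lay above every control pool at P6. The P3 control pools stood at -0.77, -0.28, -0.92 and -0.14 and the P3 Kir2.1 pools at -0.24, 0.46, -0.21 and 0.71, which overlapped. The difference at P3 was 0.71 (SE 0.36, limma adjusted p = 0.803), and the mean of both ages was 1.26 (SE 0.25, limma adjusted p = 0.0386). The P6 call was lost without Kir2.1 pool 4 (1.62, adjusted p = 0.0615) and when the 8 P6 arrays were fitted alone (adjusted p = 0.178). The call on the mean of both ages was lost without any 1 of 14 of the 16 pools (adjusted p up to 0.0839), and held without P6 control pool 3 or P6 Kir2.1 pool 1.

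Among the other non-ATPases no gene passed the threshold. Psmd7, which pairs with the deubiquitinase Psmd14 in the lid, differed by 0.64 at P6 (limma adjusted p = 0.284), and Psmd14 itself by 1.83 with an SE of 0.87 (adjusted p = 0.293). The Psmd14 pools were at -5.16, -5.93, -2.20 and -6.37 in P6 control and at -2.65, -2.34, -5.25 and -2.09 in P6 Kir2.1. In each of these groups 1 pool, the third, stood with the other group. Psmd2, the scaffold that binds ubiquitin shuttle factors, differed by -0.54 at P3 (adjusted p = 0.795) and by -0.15 at P6, and Psmd1, the other large scaffold, by -0.64 and -0.59. Of the 11 non-ATPase genes, 9 had a positive difference at P3 and 5 at P6.

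Of the 12 genes with an unadjusted p under 0.05 at P6, 3 were alpha ring genes. Psma3 differed by 0.98 (SE 0.25, limma adjusted p = 0.0643), Psma5 by 0.80 (SE 0.25, adjusted p = 0.113) and Psma2 by 0.49 (SE 0.20, adjusted p = 0.224). The Psma3 signals were -0.52, -0.04, -0.20 and 0.55 in the P6 control pools and 0.99, 0.63, 1.09 and 1.00 in the P6 Kir2.1 pools. Those of Psma5 were -0.52, -1.02, -1.14 and -1.35 in control and 0.31, -0.44, -0.37 and -0.35 in Kir2.1 pools. Those of Psma2 were 1.12, 0.73, 1.06 and 0.83 in control and 1.45, 1.56, 1.28 and 1.40 in Kir2.1 pools. In all 3 genes every Kir2.1 pool was above every control pool. Without P6 control pool 4 the Psma3 difference was 1.18 with an adjusted p of 0.0412, and without other single pools it was as low as 0.82, with adjusted p up to 0.130.

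At P3 these 3 genes differed by 0.01 (Psma3), 0.40 (Psma5) and 0.34 (Psma2), with limma adjusted p-values of 0.998, 0.844 and 0.834. Psma4 was at -0.06, -0.43, -0.39 and -0.14 in P3 control and at 0.56, 0.56, 0.33 and 0.05 in P3 Kir2.1 pools, a difference of 0.63 (SE 0.28, adjusted p = 0.739). At P6 its difference was -0.13. The second probe of Psma4, also well above background on all 16 arrays, gave 1.00 at P3 and 0.32 at P6. Psma6 was also separated at P3, with controls from 0.36 to 0.81 and Kir2.1 pools from 1.03 to 1.65 (difference 0.91, adjusted p = 0.823). At P6 it differed by -0.55, with Kir2.1 pools at -1.98, 0.02, 0.97 and 0.10. The P6 control pools were at -0.28, 0.46, 0.90 and 0.23, so Kir2.1 pool 1 alone lay below them all. The SDs of Psma6 were 0.23 (control) and 0.30 (Kir2.1) at P3, and 0.49 and 1.25 at P6, all of which enter its p-value at P3. Psma1 (0.41 at P6) and Psma7 (-0.21 at P6) did not separate at either age. In the alpha ring 5 of 7 differences were positive at P3 and 4 of 7 at P6 (4 to 6 at either age under the 4 other scalings), with medians of 0.34 and 0.41.

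In the beta ring Psmb1, a structural subunit, had the lowest p. Its P3 signals were 0.84, 0.97, 0.73 and 1.13 in control and 1.78, 1.81, 1.63 and 1.91 in Kir2.1 pools, a difference of 0.86 (SE 0.36, limma adjusted p = 0.703). The SDs of these groups were 0.17 and 0.12. Those of P6 control (0.91) and P6 Kir2.1 pools (0.28) enter the same SE. At P6 the control pools were at -0.70, -0.41, 1.20 and -0.67 and the Kir2.1 pools at 0.50, 1.06, 0.99 and 1.11, a difference of 1.06 (adjusted p = 0.142). Control pool 3 alone reached the Kir2.1 pools. Without that pool the P6 difference was 1.51 (adjusted p = 0.00774). The pool was picked out by its own Psmb1 value, so this lower p is no independent support. In the same fit 4 of 42 proteasome genes were called at P6, Psmb1, Psmb9, Psmd8 and Psmd9, beside 1.89% of all named genes. Psmd9 was then not well above background in any remaining P6 control pool. With other single pools left out the Psmb1 difference was as low as 0.88 (without control pool 1). Its adjusted p was as high as 0.287 (without control pool 4). For the mean of both ages Psmb1 differed by 0.96 (adjusted p = 0.101). Without control pool 3 this was 1.19 (adjusted p = 0.00555), with the same limit. Without another single pool its adjusted p was up to 0.179.

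The cutting subunits differed less. Psmb5, the chymotrypsin-like subunit whose promoter holds the match shown above, differed by 0.46 at P3, where the pools were separated (2.33 to 2.55 in control, 2.73 to 3.06 in Kir2.1), and by 0.28 at P6. Psmb6 differed by 0.06 and -0.15, and Psmb7 by 0.27 and 0.06. Psmb2, Psmb3 and Psmb4, the other structural subunits, differed at P6 by 0.05, -0.22 and -0.13, with SEs of 0.33, 0.22 and 0.20. Limma adjusted p-values in the beta ring were 0.703 or higher at P3 and 0.142 or higher at P6.

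Psmb9, the immunoproteasome subunit that can take the place of Psmb6, had the largest separated difference of the family at P6 on the processed signal. The control pools were at -7.80, -5.19, -4.92 and -5.71 and the Kir2.1 pools at -4.27, -3.83, -3.55 and -4.04, a difference of 1.98 (SE 0.52, limma adjusted p = 0.0693). At P3 the order was the other way, with control pools at -4.22, -4.47, -5.04 and -4.06 and Kir2.1 pools at -5.94, -5.04, -4.69 and -5.05 (difference -0.73, adjusted p = 0.871), and the groups overlapped. Psmb10 differed by 0.47 at P3 and 0.63 at P6 (adjusted p = 0.468 at P6). Psmb8, whose gene is separated from Psmb9 only by Tap1, was above background in 3 control pools (1 of P3, 2 of P6) and 1 Kir2.1 pool (of P6), and no fold is given for it. With single pools left out, the Psmb9 difference at P6 ran from 1.35 (without P6 control pool 1) to 2.31 (without P6 control pool 3, adjusted p = 0.0468), and adjusted p reached 0.131. Under normexp background correction it was 0.72 (adjusted p = 0.193), less than that of Psmd8.

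The ATPases form the ring that unfolds the substrate, and their median difference had the opposite sign to those of the alpha and beta rings. For the beta ring that median was only 0.05 at P6. Medians were also negative over all named genes (-0.10 at P3, -0.09 at P6) and for the assembly chaperones (-0.35 and -0.29). So were those of the immunoproteasome genes at P3 (-0.73) and of the non-ATPases at P6 (-0.10). In Kir2.1 cells 5 of 6 ATPases were negative at P3 (all but Psmc5) and 5 of 6 at P6 (all but Psmc1). Their medians were -0.37 and -0.40. These medians were negative under each of the 4 other scalings run, between -0.40 and -0.32 at P3 and between -0.39 and -0.18 at P6. The lowest p among them was that of Psmc6 at P3 and that of Psmc3 at P6. Psmc3 was at 1.77, 2.31, 2.44 and 1.72 in P3 control and 1.13, 1.84, 1.57 and 1.88 in P3 Kir2.1 pools. At P6 its control pools were at 2.12, 2.45, 2.57 and 2.27 and its Kir2.1 pools at 1.73, 1.85, 1.09 and 1.79. Every P6 Kir2.1 pool lay below every P6 control pool, with a difference of -0.74 (SE 0.27, limma adjusted p = 0.170), against -0.45 at P3 (adjusted p = 0.834). Psmc6 differed by -0.60 at P3 and -0.61 at P6 (adjusted p = 0.820 and 0.344), Psmc4 by -0.29 and -0.54, and Psmc2 by -0.46 and -0.22. None of the 6 passed the threshold, and whether ATPases differed from core subunits was not tested.

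**Figure D3:**
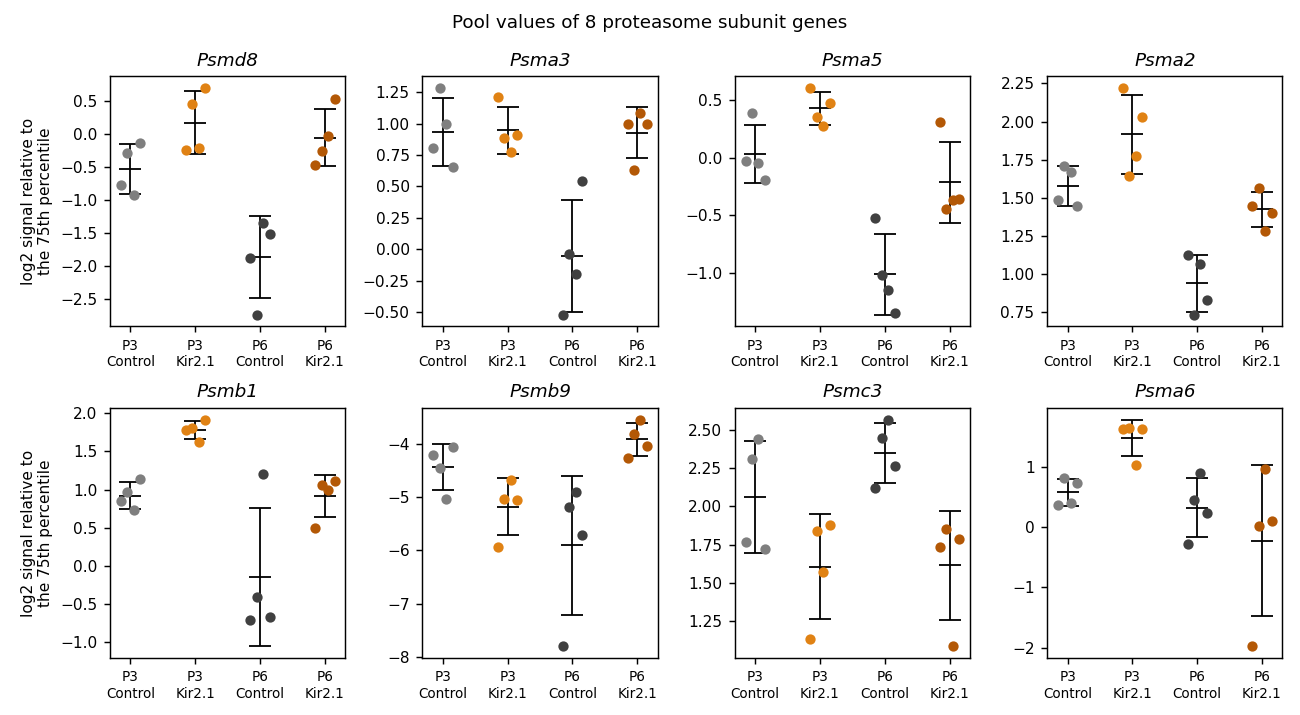
Log2 signal relative to the array's 75th percentile (y axis, a scale of its own in each panel) of 8 genes in the 4 pools of each group (points), with the group mean and SD (bars). Psmd8, Psma3, Psma5 and Psma2 are separated at P6 with the control pools low, Psmc3 with the control pools high, and in Psmb1 the control pool at 1.20 stands with the Kir2.1 pools.

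All 4 activator genes had a positive difference at P6 (3 of 4 under normexp background correction), with a median of 0.85, and none passed the threshold. Psme1 and Psme2, the subunits of the interferon-inducible cap, which are neighbours with Emc9 between them, differed by 0.91 (SE 0.39, limma adjusted p = 0.252) and 0.79 (SE 0.34, adjusted p = 0.251). Psme1 was at -0.32, -1.42, 0.01 and 0.01 in P6 control and 0.68, 1.24, -0.11 and 0.12 in P6 Kir2.1 pools, which overlapped. At P3 the differences were -0.22 and 0.07. Psme3, which forms a nuclear cap, differed by 0.19 at P6. Psme4, a large single-chain activator, differed by 1.59 at P3 and 1.87 at P6 (adjusted p = 0.803 and 0.249), but was above background on 9 arrays only, its probes gave the same sign in 2 of the 6 contrasts, and at P3 the sign turned with another background correction (-0.77).

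The chaperones that assemble the regulatory particle gave little. Psmd9 differed by 3.61 at P6 with an SE of 1.52 (limma adjusted p = 0.238); its Kir2.1 pools were at -4.24, -3.47, -4.57 and -4.70. Here too P6 control pool 3 stood apart, at -3.06, while the other P6 control pools, the lowest at -9.98, were not well above background. Psmd5 differed by -1.23 and Psmd10 by -0.29 at P6, with SEs of 1.47 and 1.57. Psmc3ip differed by 0.15 at P3 and 2.37 at P6 (SE 1.58, adjusted p = 0.460).

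The comparison of P6 with P3 asks how the genes change as the cells mature. The ages were hybridised on separate slides, which cannot be told apart from age. In control cells the alpha subunit gene Psma5 fell by 1.04 on the log2 scale (SE 0.25, limma adjusted p = 0.0430), or 2.06-fold, and no other proteasome gene passed the threshold, beside 2.64% of all named genes called. The P6 control pools enter this comparison and that of Kir2.1 at P6, so the values of a gene in both are not independent. Unadjusted p was under 0.05 for 12 of 42, all lower at P6, against 18.0% of all named genes. The groups did not overlap for 8 genes, against 12.6%: Psma2, Psma3, Psma5, Psmb2, Psmd2, Psmd8 and Psme1 were lower at P6 and Psmd3 higher.

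In control cells 28 of the 42 differences were negative (66.7%, against 53.3% of all named genes), with a median of -0.36 beside -0.08. The distance between the medians, -0.28, lay between -0.40 and -0.17 over the 29 alternatives run. In Kir2.1 cells 31 of 42 differences were negative (73.8%, against 53.7%), with a median of -0.24 beside -0.08 (-0.15 without P6 Kir2.1 pool 3). There no proteasome gene passed the threshold in limma, beside 0.956% of all named genes. Unadjusted p was under 0.05 for 9 genes, 8 lower and 1 higher, against 14.2%, and 6 did not overlap (Psma2, Psma6, Psmb1, Psmb4 and Psmb6 lower, Psmb9 higher), against 8.35%. When arrays were scaled over all probes, the medians in Kir2.1 cells became -0.08 for the proteasome (26 of 42 negative) and 0.09 for all named genes. With no filter on low signal they were -0.24 and -0.42, so that the order of the medians turned.

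**Figure D4:**
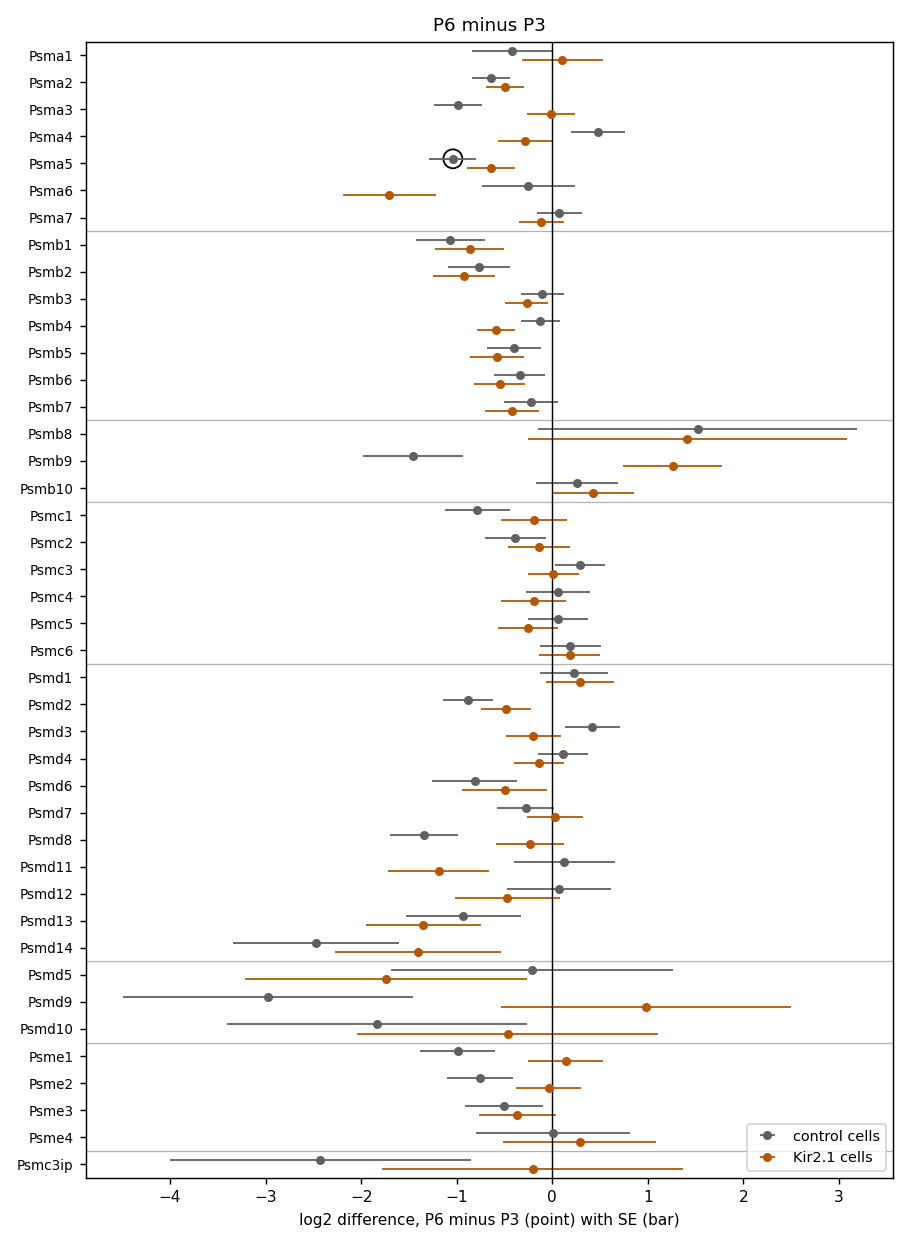
Difference in log2 signal between P6 and P3 (x axis) for 42 genes (y axis, by role), as points with their SE as bars, in control cells (grey) and Kir2.1 cells (brown); a circle marks an adjusted p under 0.05. All 7 beta ring genes (Psmb1 to Psmb7) lie left of 0 in both kinds of cell (6 of 7 in control cells under quantile normalization), and Psma5 in control cells is circled at -1.04.

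Psma5 was at -0.03, 0.39, -0.04 and -0.20 in the P3 control pools and, as given above, between -1.35 and -0.52 in the P6 control pools, so the ages did not overlap. In Kir2.1 cells it was at 0.61, 0.35, 0.28 and 0.48 at P3 and differed by -0.64 at P6 (SE 0.25, limma adjusted p = 0.239). The call in control cells was lost without any 1 of 13 of the 16 pools (adjusted p up to 0.113), and held without P6 control pool 1, P6 Kir2.1 pool 1 or P6 Kir2.1 pool 3. It was also lost with scaling over all probes (adjusted p = 0.0576), with the deposited table (0.0573), without a filter (0.0781), with the replicate number as a block (0.0591) and when the 2 groups were fitted alone (0.137). Without P6 control pool 3 the genes called were Psmb1 and Psmd14 (beside 2.48% of all named genes), and without P6 Kir2.1 pool 3 they were Psma5 and Psmd2 (beside 2.92%). Psma3 had been at 0.81, 1.29, 0.99 and 0.65 in P3 control pools and differed by -0.99 with age (SE 0.25, adjusted p = 0.0561), against -0.02 in Kir2.1 cells. Psma2 differed by -0.64 in control and -0.49 in Kir2.1 cells (adjusted p = 0.107 and 0.258), and did not overlap between ages in either. Psma6 differed by -0.25 in control cells and by -1.71 in Kir2.1 cells (SE 0.49, adjusted p = 0.122), where its P6 pools ranged from -1.98 to 0.97 and the difference was -1.12 without pool 1.

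Every beta ring gene had a negative difference with age in both kinds of cell (6 of 7 in control cells under quantile normalization), with medians of -0.34 in control and -0.58 in Kir2.1 cells, and both medians were negative under each of the 4 other scalings run. Psmb2 differed by -0.77 in control and -0.93 in Kir2.1 cells (limma adjusted p = 0.235 and 0.199). Psmb1 differed by -1.07 and -0.87 (adjusted p = 0.135 and 0.272). Psmb4, one of the steadiest genes, was at 2.43, 2.63, 2.29 and 2.34 in P3 Kir2.1 and 1.56, 1.90, 1.81 and 2.07 in P6 Kir2.1 pools, a difference of -0.59 (adjusted p = 0.190), against -0.12 in control cells. The cutting subunits Psmb5, Psmb6 and Psmb7 differed by -0.40, -0.34 and -0.22 in control and by -0.58, -0.55 and -0.42 in Kir2.1 cells. None of the 7 passed the threshold in either kind of cell.

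The immunoproteasome gene Psmb9 differed by -1.46 with age in control cells (SE 0.52, limma adjusted p = 0.159) and by 1.26 in Kir2.1 cells (adjusted p = 0.275, and 0.59 under normexp). In Kir2.1 cells every P6 pool was above every P3 pool. Psmb10 differed by 0.26 and 0.42. Among the ATPases the medians were 0.06 in control and -0.17 in Kir2.1 cells, and Psmc1 (-0.78 in control cells, adjusted p = 0.248) had the lowest p.

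Of the regulatory particle, Psmd8 differed by -1.34 with age in control cells (SE 0.36, limma adjusted p = 0.0670) and by -0.23 in Kir2.1 cells. Psmd2 was at 0.80, 0.93, 0.82 and 0.52 in P3 control and 0.06, -0.14, -0.26 and -0.12 in P6 control pools, a difference of -0.88 (SE 0.26, adjusted p = 0.0950), with no overlap. In Kir2.1 cells it differed by -0.49. Psmd14 differed by -2.48 in control cells (SE 0.87, adjusted p = 0.150), Psmd13 by -1.35 and Psmd11 by -1.19 in Kir2.1 cells (both adjusted p = 0.308). Psmd3, a lid subunit, was the separated gene that was higher, with control pools between 0.65 and 1.28 at P3 and between 1.41 and 1.68 at P6 (difference 0.42, adjusted p = 0.493). Of the activators, Psme1 differed by -0.99 (adjusted p = 0.204) and Psme2 by -0.76 in control cells, and by 0.14 and -0.04 in Kir2.1 cells.

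The genes of each role were also averaged in each pool. Mean log2 signals of the 7 alpha ring genes lay at P3 between 0.52 and 0.80 (control) and 0.80 and 1.14 (Kir2.1), and at P6 between 0.12 and 0.38 (control) and 0.39 and 0.70 (Kir2.1). Those of the 7 beta ring genes lay between 1.35 and 1.55, 1.69 and 1.93, 0.87 and 1.34, and 1.06 and 1.37 in the same order. For the 6 ATPases the ranges were 0.32 to 0.75, 0.05 to 0.26, 0.09 to 0.68, and -0.22 to 0.27. At P3 the Kir2.1 pools lay above the control pools for the beta ring and below them for the ATPases without overlap. The mean over all named genes detected on the 16 arrays was also lower in the P3 Kir2.1 pools (-1.61 to -1.58) than in the P3 control pools (-1.52 to -1.47) without overlap, the same way as the ATPases. For the alpha ring at P3 the lowest Kir2.1 pool met the highest control pool. At P6 every Kir2.1 pool lay above every control pool for the alpha ring and for 3 activators (-0.89 to -0.50, against -1.60 to -1.01). The same held for the 2 immunoproteasome genes detected on all arrays (-2.16 to -1.64, against -4.41 to -2.57). Other roles overlapped at P6, as did the mean over all named genes (-1.74 to -1.52 in Kir2.1, -1.61 to -1.50 in control). The activators, immunoproteasome genes and non-ATPases overlapped at P3.

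**Figure D5:**
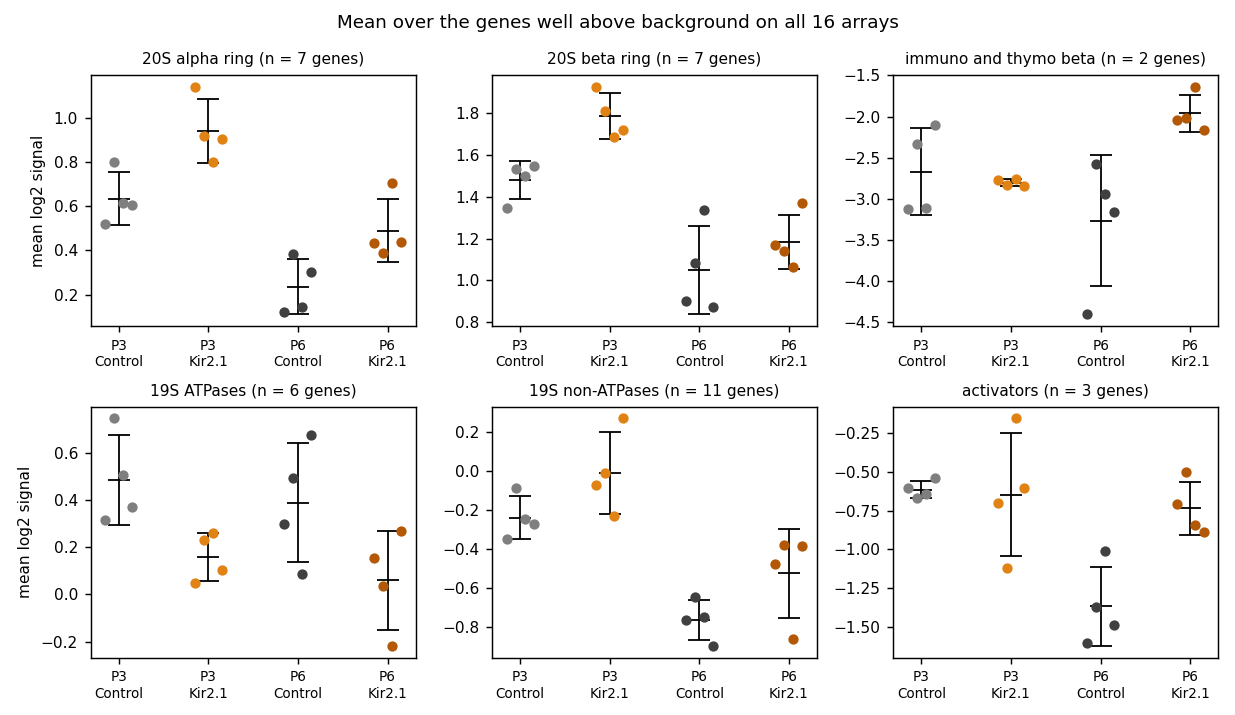
Mean log2 signal (y axis, a scale of its own in each panel) over the genes of a role detected on all 16 arrays, in each of the 4 pools of a group (points), with the group mean and SD (bars). The P6 control pools lie lowest for the alpha ring, where they range from 0.12 to 0.38, and the P3 control pools lie above the P3 Kir2.1 pools for the ATPases.

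The interaction asks whether the Kir2.1 difference itself changed from P3 to P6. No proteasome gene passed the threshold in limma, beside 0.0748% of all named genes, and 3 had an unadjusted p under 0.05, all with a larger Kir2.1 difference at P6, against 10.5%. They were Psmb9 (2.71, SE 0.74, adjusted p = 0.181, and 1.16 under normexp background correction), Psma3 (0.97, SE 0.35, adjusted p = 0.331) and Psmd8 (1.11, SE 0.51, adjusted p = 0.457). Psma6 (-1.45, adjusted p = 0.481, and -0.87 without P6 Kir2.1 pool 1) and Psme1 (1.13, adjusted p = 0.499) followed. The median over 42 genes was 0.10 beside 0.04 over all named genes, and -0.07 without P6 control pools 1 and 3. With single pools left out the lowest value was -0.02 (P3 control pool 2 left out) and the highest 0.17 (P6 Kir2.1 pool 3 left out).

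Genes that work with the proteasome were read from lists. In 18 tested genes for assembly, inhibition and association, 22 for ubiquitin and its shuttles and 7 of the NFE2L1 pathway, none passed the threshold in any of the 6 contrasts by limma; at an unadjusted p under 0.05 the largest count was 5 of 18 assembly genes, for Kir2.1 at P6 (3 higher, 2 lower, against 17.2% of all named genes) and for the mean of both ages (2 higher, 3 lower, against 12.9%). At P6 the lowest p-values among assembly and associated genes were those of Zfand5, a proteasome-binding activator (0.86 in Kir2.1 cells, adjusted p = 0.0858), and Zfand2b (-2.82, adjusted p = 0.176). At P3 they were those of the core chaperone Psmg3 (-2.14, adjusted p = 0.433) and the proteasome deubiquitinase Usp14 (-1.51, adjusted p = 0.597), which also led the mean of both ages (Usp14 -1.29, adjusted p = 0.127, and Psmg3 -1.12, adjusted p = 0.254). With age in control cells they were those of the core maturation factor Pomp (-0.98, adjusted p = 0.0836) and the deubiquitinase Uchl5 (-1.53, adjusted p = 0.124). In Kir2.1 cells they were Zfand2b (-2.52) and the core chaperone Psmg4 (-0.85), and for the interaction Psmg3 (2.04) and Zfand5 (0.80), with adjusted p from 0.266 to 0.424.

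In the ubiquitin list the leading genes for Kir2.1 were Usp7 (-0.84) and Bag6 (-0.55) at P3, Hspa8 (-0.42) and Ubqln2 (1.09) at P6, and Bag6 (-0.42) and Hspa8 (-0.33) for the mean of both ages, with adjusted p from 0.257 to 0.718. With age they were the ubiquitin-activating enzyme Uba1 (-0.85, adjusted p = 0.114) and the neuronal hydrolase Uchl1 (-1.11, adjusted p = 0.138) in control cells. Usp7 (1.19) and Usp5 (1.20) led the interaction. In the NFE2L1 list, Keap1 (-3.48) and Mafk (2.36) led at P3, Mafg (-0.87) and Mafk (-1.63) at P6, and Keap1 (-2.40) and Mafg (-0.38) the mean of both ages, with adjusted p of 0.310 or higher. Bach1 (-2.47) and Ddi2 (-1.16) led with age in control cells, Mafk (-2.76) and Vcp (0.36) in Kir2.1 cells, and Mafk (-3.99) and Bach1 (2.47) the interaction.

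In antigen presentation, which the immunoproteasome serves, 1 of 7 tested genes passed the threshold. B2m, the light chain of MHC class I, rose with age by 5.60 in control cells (SE 0.85, limma adjusted p = 0.00395) and by 6.01 in Kir2.1 cells (adjusted p = 0.0112). The heavy chain gene H2-D1 differed by 1.67 and 2.12 (adjusted p = 0.120 and 0.0880). For Kir2.1 the leading genes were Pdia3 (1.19) and H2-D1 (-0.66) at P3, Calr (-0.70) at P6, and Calr (-0.42) and Pdia3 (0.89) for the mean of both ages, with adjusted p of 0.217 or higher. For the interaction H2-K1 differed by 2.23 (adjusted p = 0.554).

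Markers of other cells moved with the same groups. The summed signal of 14 tested interneuron markers, relative to the 75th percentile, ranged from 4.53 to 10.3 in P6 control and from 1.42 to 3.67 in P6 Kir2.1 pools, against 1.95 to 2.48 and 1.77 to 3.04 at P3. At P6, 13 of the 14 had a negative Kir2.1 difference and 1 was called lower, beside 1.80% of all named genes called. Dlx6 and Calb1 were not well above background in any P6 pool. For 15 mitral and tufted cell markers the sums were 15.5 to 24.1 in P6 control and 23.7 to 36.4 in P6 Kir2.1 pools, 12 with a positive difference, and Lhx5 was not well above background in any P6 pool. Astrocyte markers summed to 12.8 to 14.5 in P6 control and 4.81 to 16.1 in P6 Kir2.1 pools (8 of 10 negative), against 1.76 to 4.48 and 3.55 to 10.4 at P3. Olfactory ensheathing cell markers summed to 10.3 to 15.2 in P6 control and 2.95 to 30.0 in P6 Kir2.1 pools (7 of 8 negative), against 1.61 to 8.51 and 3.58 to 9.64 at P3, and Foxd3 was not well above background in any P6 Kir2.1 pool. With age in control cells, the comparison in which Psma5 fell, 12 of 14 interneuron markers were positive (3 called higher), 9 of 10 astrocyte markers (1 called higher), 8 of 8 ensheathing cell markers (1 called higher) and 7 of 15 mitral and tufted cell markers (1 called higher). The part of these markers in the proteasome differences was not tested.

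Pools that stood out in markers of 3 further cell types were left out as a choice made after the data were seen. P6 control pools 1 and 3 were the highest in microglia markers (2.16 and 2.31, against 0.63 and 0.71), and 6 of 7 tested microglia markers had a negative Kir2.1 difference at P6. Trem2 was not well above background in any P6 control pool, nor Cx3cr1, C1qa and C1qc in any P6 Kir2.1 pool. Without these pools Psmd8 differed by 2.07 at P6 (adjusted p = 0.0451), Psmb1 by 1.45 (adjusted p = 0.0197) and Psma3 by 0.67 (adjusted p = 0.267). P6 Kir2.1 pools 1 and 2 were the highest in vascular markers (3.60 and 3.50, against 0.25 and 0.07) and dividing cell markers (0.67 and 0.84, against 0.13 and 0.09), and all 5 tested dividing cell markers had a positive difference at P6. The vascular markers Tek and Rgs5 were not well above background in any P6 pool. Without Kir2.1 pools 1 and 2 Psmd8 differed by 2.13 (adjusted p = 0.0639), and no proteasome gene was called at P6, beside 0.665% of all named genes. Psma5 differed with age in control cells by -1.22 without P6 control pools 1 and 3 (adjusted p = 0.0630).

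Where a gene had a second probe, agreement varied. Of 10 such genes, Psmb5, Psmc1, Psmc2, Psmd9 and Psme2 had the same sign on both probes in all 6 contrasts and Psma4 and Psmc3 in 5. Psmd10 had the same sign in 3, and Psmd12 and Psme4 in 2. RefSeq lists pseudogenes of Psma5, Psmb5, Psmb6 and Psmb7, from which the probes' own signal was not told apart.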

How the data were processed

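The authors deposited scanner tables of 16 one-colour (Cy3) Agilent arrays, read with Agilent Feature Extraction 10.7.3.1 per the file headers, whose processed signal is a linear intensity after background subtraction. They also deposited a value table, which comparison with the scanner tables showed to be the ratio of that signal to the array's 75th percentile. The symbols came from RefSeq accessions (assembly GRCm38.p6), which named 26546 of 28079 probes with such an accession.

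From these, control and outlier spots were left out, spots of a probe averaged, and log2 signals scaled by the 75th percentile over 12103 probes (those well above background on every array). Testing required a probe to be well above background on at least 4 arrays, and each gene was read from its probe of highest mean. All arrays were fitted with limma 3.58.1 (R 4.3.3), with Benjamini-Hochberg adjustment over 21070 features and a threshold of 0.05. The fit was checked on simulated normal data with the same SD in all 4 groups, so the check does not cover unequal spreads. The root mean square SD over the tested features was 1.18 in P3 control and 1.33 in P3 Kir2.1 pools. At P6 it was 1.51 in control and 1.52 in Kir2.1 pools.

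In each slide control pools lay in row 1 and Kir2.1 pools in row 2, so row and treatment cannot be told apart. The labels do not say whether replicate numbers pair pools, and the main fit did not use them as pairs. Same-numbered pools shared little deviation from their group means (correlations from -0.0282 to 0.0308 over 24 pairs), which cannot show that they were unpaired. The number of arrays limits the precision. Alternatives were scaling, background correction (normexp on the median signal, offset 50, a departure from the plan, which named the mean signal), the filter, the probe rule, the variance model, array weights, the block and left-out pools. Genes named were, per contrast, those called, otherwise the 5 lowest p, separated genes with an unadjusted p under 0.05, untested genes and up to 4 of a role; further members were added after their values were seen. The members and lists were chosen with earlier results of these data known. Some genes that this rule names are not reported here.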

Additional observations from a re-analysis of the deposited data

Results flagged for a closer look

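In 11 of 168 groups of 4 pools examined, 1 pool lay far from the other 3, by the usual criterion for a gap relative to the range of 4 values (Dixon). Chance gives this in about 1 in 20 groups. At P6, Psmb1 was 1.20 in control pool 3, against -0.41 in the next pool. In the same pool Psmd9 was -3.06 and well above background, as in no other pool of that group. In Kir2.1 pool 3 at P6, Psmc3 was 1.09 (next 1.73), and Psmd5 was -9.88 (next -1.83) and not well above background. Psma5 was 0.31 in Kir2.1 pool 1 at P6 (next -0.35).

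At P3, Psma6 was 1.03 in Kir2.1 pool 3 (next 1.62) and Psmb6 was 3.25 in Kir2.1 pool 1 (next 2.82). Psmd1 was -1.17 in control pool 1 (next 0.05) and -1.41 in Kir2.1 pool 4 (next -0.75). Psmc5 was 0.43 in control pool 2 (next -0.31), and Psmd3 was 0.65 in control pool 4 (next 1.24). All values are scaled log2 signals.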

How the results depend on the processing

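The counts of called proteasome genes for Kir2.1 at P3, for age in Kir2.1 cells and for the interaction were 0 under all alternatives run. At P6 the count for Kir2.1 was 2 under normexp, with the filter at 8 arrays and with trend and robust eBayes (Psma3 and Psmd8 each time), 2 without control pools 1 and 3, 0 with arrays of the 2 groups only, 0 without Kir2.1 pools 1 and 2, and 0 to 4 when single pools were left out. The share of all named genes called changed as well. It was 3.60% under normexp, 2.79% with the filter at 8 arrays and 3.11% with trend and robust eBayes. Without control pools 1 and 3 it was 1.44%, with arrays of the 2 groups only 0.0831%, and without Kir2.1 pools 1 and 2 0.665%. Without single pools it ran from 0.881% to 1.89%. The median at P6 was 0.27 with all probes for scaling, 0.26 with the deposited table, 0.22 with the mean over probes, and 0.015 to 0.31 without single pools. For the mean of both ages the count was 0 without a filter, 0 without P6 Kir2.1 pools 1 and 2, 2 without P6 control pools 1 and 3, and 0 to 2 without single pools. The shares of all named genes were, in the same order, 0.199%, 0.349%, 1.01%, and 0.291% to 1.15%. For age in control cells the count was 0 with all-probe scaling, the deposited table, no filter and 2 groups only. It was 2 under normexp, quantile normalization, the filter at 8 arrays and without P6 control pools 1 and 3. It was 5 with trend and robust eBayes (Psma2, Psma3, Psma5, Psmd2 and Psmd8), and 0 to 2 without single pools. Here too the share of all named genes called moved with the setting, from 2.64% in the main fit. It was 4.24% with trend and robust eBayes, 3.21% under normexp, 2.79% under quantile normalization and 3.46% with the filter at 8 arrays. Without P6 control pools 1 and 3 it was 1.74%, and without single pools 1.11% to 2.92%. It was 2.03% with the deposited table, 0.845% without a filter and 0.872% with 2 groups only. With the replicate number as a block, Psmd8 at P6 kept its call (adjusted p = 0.0340), while the counts for the mean of both ages and for age in control cells were 0 (Psmd8 0.0515, Psma5 0.0591). The shares of all named genes in these comparisons were, in the same order, 0.931%, 0.324% and 1.65%. Whether the numbers pair the pools is not known from the labels.

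The median for age in Kir2.1 cells was -0.075 with all-probe scaling and -0.086 with the deposited table. For the interaction it was 0.27 with all-probe scaling and -0.072 without P6 control pools 1 and 3. Psme4 turned to -0.77 at P3 and -0.47 for the mean of both ages under normexp, and to -0.31 at P3 with the mean over probes. The cause of these changes was not tested.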
